A study of Rattus norvegicus with 4 samples.

Results

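The 87 genes described here are cell cycle genes and their namesakes as measured in liver: cyclins, cyclin-dependent kinases (CDKs) and their inhibitors, E2F factors, genes of DNA replication and mitosis, and further genes whose names begin with Cdk or Cdc. They were chosen by gene symbol alone, from 10412 genes with a probe set assigned to a single symbol, and a gene's value is that of its brightest probe set, taken by the mean over the rats. Their 120 probe sets are among the 15923 of the array. The samples were livers of 4 male Sprague-Dawley rats aged 10 to 12 weeks that received no treatment and were fed freely, each rat on its own Affymetrix array. All 4 form 1 group, called control by the labels, so no conditions were compared and no test between groups was possible. Each rat had 1 array, so a difference between animals cannot be told apart from a difference between arrays. The labelled tissue was borne out by hepatocyte markers, of which 9 of 9 measured were above background, led by albumin (Alb) at a log2 signal of 15.06.

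In most adult hepatocytes the cell cycle is at rest, and the cells can re-enter it after loss of tissue. Entry is driven by D-type cyclins with Cdk4 and Cdk6, which phosphorylate the retinoblastoma proteins and free E2F factors to switch on the genes of DNA replication. Mitotic genes follow later and are held down in resting cells by the DREAM complex, which binds promoters through a short element called CHR (cell cycle genes homology region) or through E2F sites. CCAAT boxes, bound by NF-Y, lie next to the CHR in many mitotic promoters. CDK inhibitors such as p21 (Cdkn1a) and p27 (Cdkn1b) oppose the kinases.

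The promoters below show that the members carry these elements unequally. They are the 250 bases before the start of the first promoter listed for each gene by RefSeq in assembly GRCr8, written 5′ to 3′ on the gene's strand. Capitals mark matches. The CHR was searched as TTTGAA and the CCAAT box by the letters of its name. An E2F site was any of TTTCCCGC, TTTCGCGC, TTTGCCGC and TTTGGCGC, and the p53 half-site was the usual decamer. Each was searched on both strands, and overlapping matches run together. The listed start differs from the gene table's own start for Ccnb2, Cdk1 and Cdkn1a. The first 4 genes belong to the proliferation genes described below and had signals under the background level. Cdkn1a is shown as a contrast above it. The 5 were picked as examples, and the elements are not confined to low signals. Among the proliferation genes above background, Plk1 and Cdc20 also hold a CHR and Mcm7 E2F matches, while Pcna holds neither. These matches lie in the longer windows described below.
Ccnb2, chr8:79981659-79981908, minus strand, mitotic cyclin: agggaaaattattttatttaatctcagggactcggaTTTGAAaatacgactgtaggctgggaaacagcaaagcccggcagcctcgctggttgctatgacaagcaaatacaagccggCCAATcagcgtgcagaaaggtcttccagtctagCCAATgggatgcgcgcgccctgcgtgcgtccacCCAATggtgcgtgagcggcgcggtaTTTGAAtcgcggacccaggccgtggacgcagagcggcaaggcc
Cdk1, chr20:19265043-19265292, plus strand, mitotic kinase: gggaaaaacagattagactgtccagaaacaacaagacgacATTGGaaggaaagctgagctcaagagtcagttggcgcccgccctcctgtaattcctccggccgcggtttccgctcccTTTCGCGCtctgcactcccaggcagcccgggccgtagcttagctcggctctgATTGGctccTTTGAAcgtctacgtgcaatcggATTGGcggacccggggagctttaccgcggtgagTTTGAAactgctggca
Top2a, chr10:84473094-84473343, minus strand, topoisomerase II alpha: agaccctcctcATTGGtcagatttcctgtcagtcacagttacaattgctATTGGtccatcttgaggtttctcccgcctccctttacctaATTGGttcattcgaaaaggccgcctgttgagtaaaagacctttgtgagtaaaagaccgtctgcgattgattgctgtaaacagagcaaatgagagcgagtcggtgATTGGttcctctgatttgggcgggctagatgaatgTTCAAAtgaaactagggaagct
Mcm6, chr13:42404353-42404602, minus strand, helicase subunit: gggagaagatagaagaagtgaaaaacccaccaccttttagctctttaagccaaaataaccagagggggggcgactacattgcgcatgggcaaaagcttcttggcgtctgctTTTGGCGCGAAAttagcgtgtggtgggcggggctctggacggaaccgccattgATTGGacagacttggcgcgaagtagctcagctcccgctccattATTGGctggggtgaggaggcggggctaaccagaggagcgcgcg
Cdkn1a, chr20:7150682-7150931, plus strand, CDK inhibitor: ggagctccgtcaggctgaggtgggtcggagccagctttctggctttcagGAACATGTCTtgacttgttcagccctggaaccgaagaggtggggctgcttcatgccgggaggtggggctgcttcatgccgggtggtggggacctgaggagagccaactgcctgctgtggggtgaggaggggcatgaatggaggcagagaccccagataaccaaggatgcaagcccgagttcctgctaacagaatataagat

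In the Ccnb2 promoter a CHR starts 43 bases before the listed start, with the nearest of 3 CCAAT boxes at 68 bases. Top2a has the same pair of elements on the other strand, with the CHR at 22 bases and the nearest of 4 CCAAT boxes at 57 bases. Cdk1 holds 2 CHR matches, 3 CCAAT boxes and 1 E2F match, and Mcm6 holds 2 overlapping E2F matches, at 139 and 135 bases. The Cdkn1a window holds 1 p53 half-site, 201 bases before the listed start, and no CHR, CCAAT or E2F match. As that start differs from the gene table's own, the distance and the absence of other matches hold for this window only. Such a match describes letters in a window and is not a binding site, and a window without one says nothing of the factor.

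Of the 87 members, 71 were matched to a promoter by gene number. CHR was found in 11 of 21 proliferation genes (52.4%), 5 of 50 other members (10%) and 18.1% of the 27457 genes in the table, in windows of 300 bases that include 50 bases after the start. E2F matches occurred in 7 of 21 proliferation genes (33.3%), 1 of 50 other members (2%) and 2.25% of all genes. CCAAT boxes were in 16 of 21 (76.2%), 22 of 50 (44%) and 37.7%. The p53 half-site was in 1 of 21 proliferation genes (4.76%), 3 of 50 other members (6%) and 7.89% of all genes. The 3 other members were Cdkn1a, Ccng1 and Cdkn2c, which had signals above the background level. By signal, CHR matches were in 6 of 28 members above background (21.4%) and 10 of 43 below it (23.3%). E2F matches were in 1 of 28 (3.57%) and 7 of 43 (16.3%), and the p53 half-site in 3 of 28 (10.7%) and 1 of 43 (2.33%). These shares describe the promoters and were not tested. The proliferation genes were listed as genes that resting cells keep low, the kind that DREAM holds down through CHR or E2F sites. Their higher shares of these motifs are therefore partly built in. The motifs were chosen after values were seen, the p53 half-site last, so the split by signal carries no weight of its own.

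**Figure D1:**
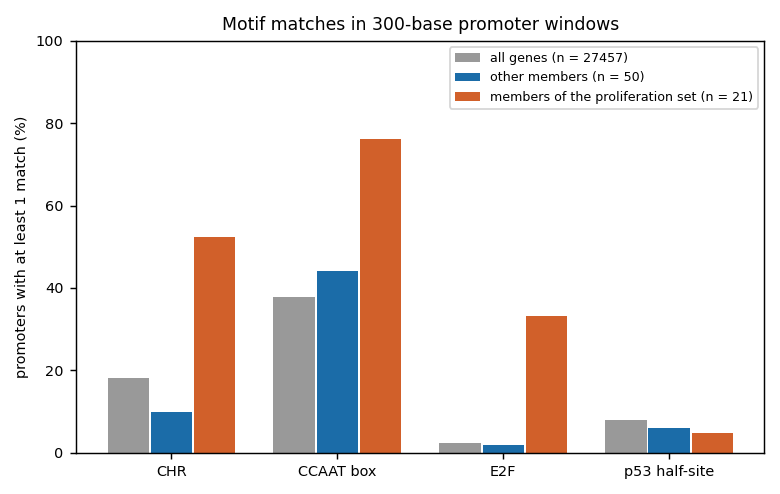
The share of promoters (percent, y axis) with at least 1 match to each motif (x axis), for all genes, the proliferation genes and the other members. The proliferation genes stand at 52.4% for CHR and 33.3% for E2F, above the other members at 10% and 2%. This difference is partly built in, because the list was made of genes that resting cells keep low.

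Signals are given on the log2 scale as deposited. The signal of a probe set depends on its probes, so an order of signals between genes is not an order of transcript amounts. As a guide to low signals, a background level of 8.26 was set from 50 genes of tissues other than liver (brain, muscle, testis, eye and endocrine glands), as the 95th percentile of their 62 probe sets. A mean above it counts as above background. This holds for 49.7% of all named genes, the share to set beside each count above background given here. Adding Myh1, a muscle myosin with 4 of 5 probe sets above that level and as high as 11.49, would move the level to 9.69, which 10.7% of named genes exceed. Control probe sets for Bacillus transcripts reached from 6.48 to 7.75, so a gene with a signal under 8.26 may still be transcribed. Probe sets whose values were equal to within 0.001 on all 4 arrays are called flat. They made up 44 of 87 members, against 42.4% of named genes, and their single value is printed without an SD because it does not measure the animals.

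Of the 87 members, 35 were above background, or 40.2%, beside 49.7% of all named genes. Of these 35, 23 were not flat, beside 3355 of the 5171 named genes above background. The rest of the 35 are called on a flat value, which does not measure the animals. The median signal of all members was 8.09 against 8.26 over all named genes. The members fell into unlike parts. The proliferation genes are 25 of them, listed as S-phase and mitosis genes that resting cells keep low. The list was chosen with earlier results of these data known, so low signals in it are partly built in. It leaves out other mitotic genes, among them Bub3 and Cdc16 above background and Cdc23, Cdc25b and Aurkc below. Of the 25 proliferation genes, 4 (16%) were above background, against 31 of the other 62 (50%). The median signal was 7.68 for the proliferation genes and 8.26 for the others. Ranked among all named genes, the proliferation genes had a median percentile of 17.4 and the other members one of 50.5. The lowest 20% of named genes by signal held 14 of the 25 proliferation genes and 8 of the other 62, while the highest 20% held 0 and 12. At the level with Myh1, 0 of 25 proliferation genes and 4 of the other 62 members were above background. At the 98th percentile of the background probe sets (8.44), which 40.7% of named genes exceed, these counts were 2 and 28. At the 90th percentile, which 51.1% exceed, the same 35 members as at the 95th were counted.

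**Figure D2:**
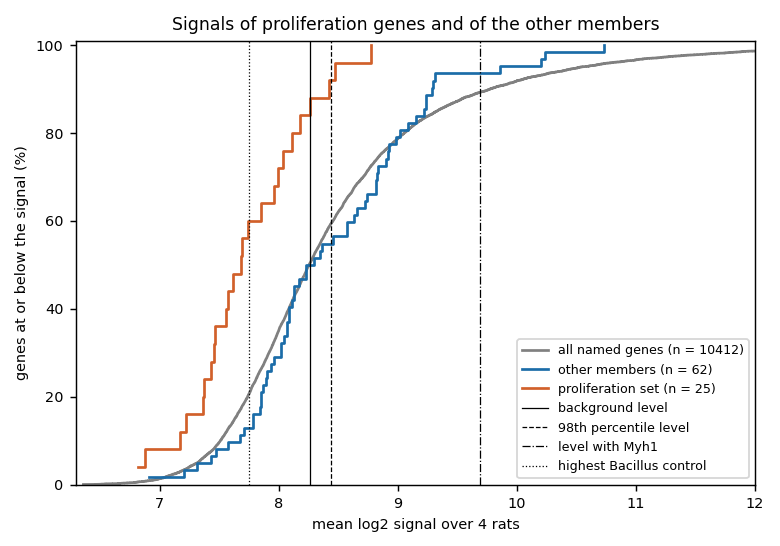
Cumulative share of genes (percent, y axis) at or below a mean log2 signal (x axis), for all named genes, the 25 proliferation genes and the 62 other members, with the background levels and the highest Bacillus control as vertical lines. The curve of the proliferation genes lies to the left, with a median of 7.68, and that of the other members follows all named genes, with a median of 8.26.

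The threshold itself separates close neighbours. Just above it lay Cdc20 at 8.27, Ccng1 at 8.30, Cdk5rap2 at 8.34 and Cdkn1b at 8.36, and just below it Cdc123 and Ccnt2, both flat at 8.23. Of the 43 members that were not flat, 41 had all 4 rats on the same side of the level. The exceptions were Cdc20, above it in 2 of 4 rats, and Ccng1, above it in 3.

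**Figure D3:**
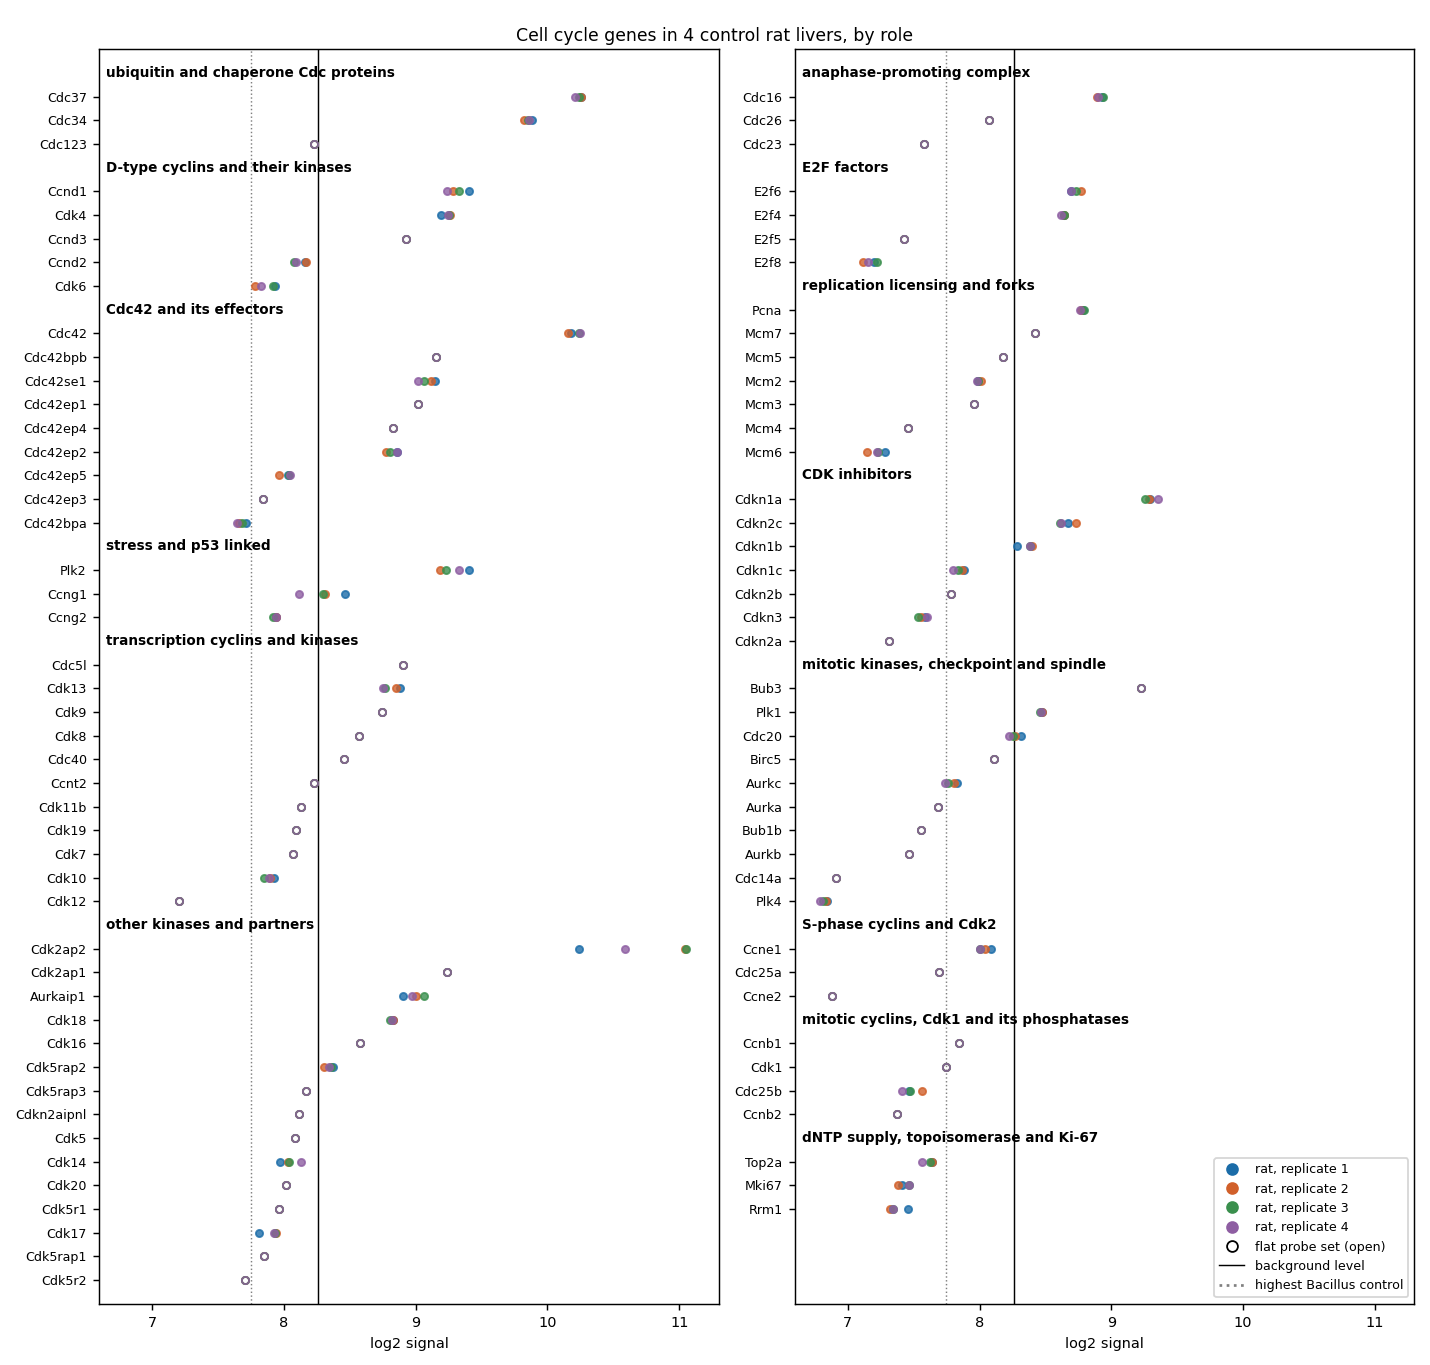
The log2 signal (x axis) of each of the 87 members in each of the 4 rats (coloured points, open where the probe set is flat), grouped by role, with the background level of 8.26 and the highest Bacillus control of 7.75 as lines. Ccnd1, Ccnd3 and Cdk4 lie right of the background level, and Ccnd2, Cdk6, the mitotic cyclins, Ki-67 and Top2a lie left of it.

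The D-type cyclins, which link growth signals to entry into the cell cycle, were divided, with Ccnd1 and Ccnd3 above background and Ccnd2 below it. Ccnd1 had signals of 9.40, 9.29, 9.33 and 9.24 in replicates 1 to 4, or 9.31 ± 0.07 (SD, n = 4). All 4 rats were above background, and replicate 1 was highest. Its 2 further probe sets were also above background, at means of 8.61 and 8.49, and replicate 1 was highest on both. Their partner kinase Cdk4 was at 9.19, 9.26, 9.25 and 9.24, a mean of 9.24 ± 0.03, with little difference between rats. Ccnd3 was flat at 8.93. Ccnd2 (8.12 ± 0.05) and Cdk6 (7.87 ± 0.07), the paralogs of Ccnd1 and Cdk4, were below background in every rat. Thus 3 of 5 members of this role were above background, and Ccnd1 and Cdk4 stood at the 84.8th and 83.6th percentiles of named genes.

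The cyclins and phosphatase that act after them, at the start of S phase, were all below background. Ccne1, a cyclin E, had a mean of 8.04 ± 0.04, highest in replicate 1 at 8.09. Ccne2, the other cyclin E, was flat at 6.88 and Cdc25a, the phosphatase that activates CDKs at S-phase entry, was flat at 7.69. Both lay below the highest Bacillus control. Cdc25a had a second probe set, which was also at 7.69. Ccna2 and Cdk2 were not analysed here.

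The mitotic engine was below background in all 4 of its members. Ccnb1 and Ccnb2, the B-type cyclins that drive mitosis, were flat at 7.85 and 7.38, and Cdk1, their kinase, was flat at 7.74. Cdc25b, a phosphatase that activates Cdk1, was at 7.46, 7.56, 7.47 and 7.41, a mean of 7.48 ± 0.06. The second Ccnb1 probe set was at 7.78 ± 0.04.

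Replication genes were divided. Pcna, the sliding clamp of DNA polymerases that also serves DNA repair, had the highest signal of the proliferation genes, at 8.79, 8.77, 8.79 and 8.76, a mean of 8.78 ± 0.015. All 4 rats were above background, within a range of 0.032. Of the MCM2-7 helicase, which unwinds DNA at the fork, Mcm7 was above background, flat at 8.42. The other 5 subunits were below it: Mcm5 (flat, 8.18), Mcm2 (7.99 ± 0.01), Mcm3 (flat, 7.96), Mcm4 (flat, 7.45) and Mcm6 (7.22 ± 0.06). Mcm6 ran from 7.14 in replicate 2 to 7.28 in replicate 1. The subunits act as 1 complex, yet their signals spanned from 7.22 to 8.42, and signals of different probes cannot be read as unequal amounts.

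Of the usual markers of dividing cells, Mki67, Top2a and Rrm1 had low signals. Others stood higher among named genes, with Pcna at the 72.6th percentile, Plk1 at the 60.5th and Birc5 at the 41.8th. Mki67, which encodes the Ki-67 antigen, was at 7.41, 7.38, 7.47 and 7.47, a mean of 7.43 ± 0.04, at the 7.5th percentile of named genes. Top2a, which untangles DNA before mitosis, was at 7.64, 7.64, 7.62 and 7.56, a mean of 7.62 ± 0.04, and its second probe set was flat at 7.57. Rrm1, the large subunit of ribonucleotide reductase, was at 7.46, 7.32, 7.34 and 7.34, a mean of 7.36 ± 0.06. All 3 were below the highest Bacillus control. The small subunit Rrm2 shares its probe set with Rrm2l1 and is therefore no member; that probe set was flat at 7.77.

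Among mitotic kinases and checkpoint genes, 3 of 10 were above background. Bub3, a checkpoint protein, was flat at 9.22, and it is not counted as a proliferation gene here. Plk1, the polo kinase of mitosis, was at 8.47, 8.47, 8.46 and 8.47, a mean of 8.47 ± 0.005. Its SD stood at the 1.92nd percentile of the 2604 genes that were not flat and of like signal. Cdc20, which activates the anaphase-promoting complex, was at 8.31, 8.27, 8.26 and 8.22 on its brightest probe set, a mean of 8.27 ± 0.04. Its 4 further probe sets were all below background, at 7.99, 7.75, 7.42 and 7.35, so the call of Cdc20 rested on 1 of 5. Aurka, Aurkb and Bub1b, a checkpoint kinase, were flat at 7.68, 7.46 and 7.56, and Birc5 (survivin) was flat at 8.11. Plk4, the kinase of centriole duplication, had the lowest signal of the 87 members, 6.82 ± 0.03. Of the anaphase-promoting complex, Cdc16 was above background (8.91 ± 0.02), while Cdc26 (flat, 8.07) and Cdc23 (flat, 7.57) were not. Over all 25 proliferation genes, 15 did not exceed the highest Bacillus control, while 79.6% of named genes did.

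The CDK inhibitors were above background in 3 of 7 cases (42.9%), beside 49.7% of all named genes. Cdkn1a (p21) was at 9.29, 9.29, 9.26 and 9.35, a mean of 9.30 ± 0.04. All 4 rats were above background, within a range of 0.095 log2 units. Its second probe set was flat at 8.46, above background too. Cdkn2c (p18), which inhibits Cdk4 and Cdk6, was at 8.67, 8.73, 8.61 and 8.62. Cdkn1b (p27) was at 8.28, 8.39, 8.38 and 8.38, with replicate 1 lowest, and its second probe set was flat at 7.61, below background. Cdkn1c (p57) was at 7.85 ± 0.04 and Cdkn2b (p15) flat at 7.79. Cdkn2a, which encodes p16 and Arf, was flat at 7.31. Cdkn3, a phosphatase that acts on CDKs and is high in dividing cells, was at 7.57 ± 0.03.

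Of the E2F factors, which bind the promoters of replication genes, 2 of 4 were above background (50%), beside 49.7% of all named genes. E2f4, the repressor-type partner of DREAM, was at 8.64, 8.64, 8.64 and 8.62, and E2f6, a repressor that acts without retinoblastoma proteins, was at 8.70, 8.77, 8.73 and 8.69. E2f5 was flat at 7.43. E2f8, an atypical E2F that rises in S phase, was at 7.17 ± 0.05, below background in every rat. E2f1 was not analysed here.

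Of the 3 genes linked to stress and p53, Ccng1 and Plk2 were above background and Ccng2 was not. Ccng1 (cyclin G1), a p53 target, was at 8.46, 8.31, 8.29 and 8.11, a mean of 8.30 ± 0.14. Replicate 1 was highest and replicate 4 lowest, below the background level. Its SD was higher than that of 95.6% of the 2804 genes that were not flat and whose signal lay within 0.5 log2 units. Plk2, a polo kinase induced by stress and growth signals, was at 9.41, 9.19, 9.23 and 9.33, a mean of 9.29 ± 0.10. Ccng2 (cyclin G2), a target of FoxO factors, was at 7.93 ± 0.01, below background. Phlda3, a p53 target outside the list, was highest in replicate 1 (9.26) and lowest in replicate 4 (8.63) as Ccng1 was. Mdm2, below background, had the same extremes (8.10 and 7.93). Cdkn1a, also a p53 target, was highest in replicate 4, as were Gadd45a (8.65), Perp (9.20) and Fas (7.29). Ei24 was highest in replicate 2 (10.54), and Zmat3 and Sesn1 were flat. Hbb, a hemoglobin chain, was at 11.91, 11.27 and 11.64 in replicates 1 to 3 and lowest in replicate 4, so it too was highest in replicate 1. Alas2, the heme synthesis enzyme of red cells, was at 8.43, 8.22, 8.40 and 8.28, also highest in replicate 1, and Ahsp was flat. The 4 blood cell markers together averaged 9.34, 9.25, 9.53 and 9.13, with Tfrc, the transferrin receptor, which other cells make as well, highest in replicate 3 (10.11, against 9.04 in replicate 1). Their part in the Ccng1 difference was not tested.

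The highest signals were held by members named Cdc or Cdk that are themselves neither cyclins nor CDKs. Cdk2ap2, an associated protein of Cdk2, was highest of all members and the most variable. Its signals were 10.24, 11.05, 11.05 and 10.59, a mean of 10.73 ± 0.39. Replicates 2 and 3 were high, replicate 1 was low, and the SD was above that of 93.7% of 349 genes of like signal, whose median SD was 0.092. Hepatocyte markers averaged 13.12 in replicate 1 and from 13.26 to 13.36 in the other rats. Tat (9.52 in replicate 1, against 10.30 to 11.10) and Apoa1 (12.34, against 12.92 to 13.03) carried most of this, whereas Hpx and Fgb were highest in replicate 1. Kupffer cell markers averaged 9.72, 9.98, 9.89 and 9.80 in replicates 1 to 4, and 3 of the 6 (C1qa, C1qc and Cd68) were lowest in replicate 1. Their part in the difference was not tested. Cdk2ap1, its paralog, was flat at 9.24 on its brightest probe set and at 7.52 ± 0.05 on the other.

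Cdc37, the co-chaperone that brings kinases to Hsp90, was at 10.25, 10.25, 10.24 and 10.21, and its SD of 0.019 stood at the 4.37th percentile of 526 genes of like signal. Cdc34, a ubiquitin-conjugating enzyme, was at 9.86 ± 0.03, and both its further probe sets were above background. The GTPase Cdc42, which organises actin and cell polarity, was at 10.18, 10.15, 10.24 and 10.25, and its second probe set was flat at 10.18. Of Cdc42 and its effectors, 6 of 9 were above background, among them Cdc42bpb (flat, 9.15), Cdc42se1 (9.09 ± 0.06), Cdc42ep1 (flat, 9.02), Cdc42ep4 (flat, 8.83) and Cdc42ep2 (8.82 ± 0.04).

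Kinases and partners of transcription were above background in 5 of 11 cases (45.5%), and 9 of these 11 were flat. They were Cdc5l, a splicing factor, at 8.90, Cdk13 at 8.81 ± 0.06, Cdk9, the kinase of elongation factor P-TEFb, at 8.74, Cdk8 of the Mediator at 8.57, and Cdc40, a splicing factor, at 8.46. Cdk7, the kinase of TFIIH, was flat at 8.07 and Ccnt2, a cyclin of P-TEFb, flat at 8.23. Among the remaining kinases and partners, Aurkaip1, a mitochondrial ribosome protein that binds Aurora A, was at 8.99 ± 0.07. Cdk18 (8.82 ± 0.01), Cdk16 (flat, 8.58) and Cdk5rap2, a centrosome protein (8.34 ± 0.03), were above background as well. Cdk14 (8.04 ± 0.07) and Cdk5 (flat, 8.09) were not.

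The choice of the brightest probe set mattered for some members. Of the 23 members with more than 1 probe set, 8 had all of them above background and 10 had none, while 5 were divided. The divided ones were Cdk2ap1, Cdk9, Cdk13, Cdkn1b and Cdc20. Cdk9 had probe sets at 8.74 and 7.54, and Cdk13 at 8.81, 8.54 and 7.90. Of the members not divided, those above background had further probe sets at 8.70 (Cdc42bpb), 8.72 (Cdc42se1), 8.59 (Cdk18) and 8.29 (Cdk5rap2). Cdc23 had a second probe set below its first, and the others below background had them at 7.24 and 7.11 (Ccnt2), 8.01 and 7.79 (Cdc26), and 7.16 and a flat lower one (Cdk14). Cdk11b, a kinase of splicing and transcription, had 8.13 and 7.79, Cdk5r2, an activator of Cdk5, had 7.71, 7.69 and 7.65, and Cdkn2aipnl had 8.11 and 7.93. When each gene was given its middle probe set value, 32 members were above background, and Cdc20, Cdk9 and Cdkn1b were not.

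**Figure D4:**
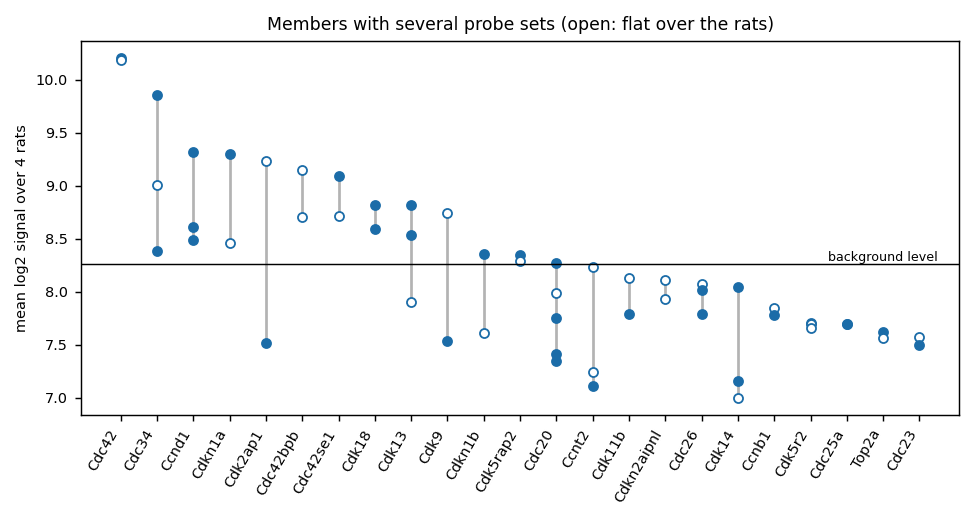
Mean log2 signal over 4 rats (y axis) of each probe set of the 23 members with more than 1 (x axis), joined by a line per gene, open where the probe set is flat, with the background level of 8.26. Cdk2ap1 spans from 9.24 to 7.52, while both Cdc42 probe sets lie near 10.2.

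Differences between rats were small for most members. The 23 members above background that were not flat had a median SD of 0.040 log2 units, beside 0.057 for all 3355 such genes. This comparison was not matched for signal. For single members, the median SD of genes of like signal ran from 0.044 (Cdc20) to 0.092 (Cdk2ap2). With the 12 flat members above background kept in, it was 0.023. An SD over 0.1 was found in 2 members, Cdk2ap2 and Ccng1, and in 9.3% of named genes. Among the 43 members that were not flat, 21 were highest in replicate 1 (48.8%), beside 26.8% of all named genes that were not flat. The median deviation of these members was 0.016 log2 units in replicate 1 and -0.017 in replicate 4, beside 0.0002 and -0.0031 for all such genes. Ccnd1, Cdk6, Rrm1 and Plk2 were among those highest in replicate 1, and Aurkaip1 and Cdk14 among those lowest there.

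**Figure D5:**
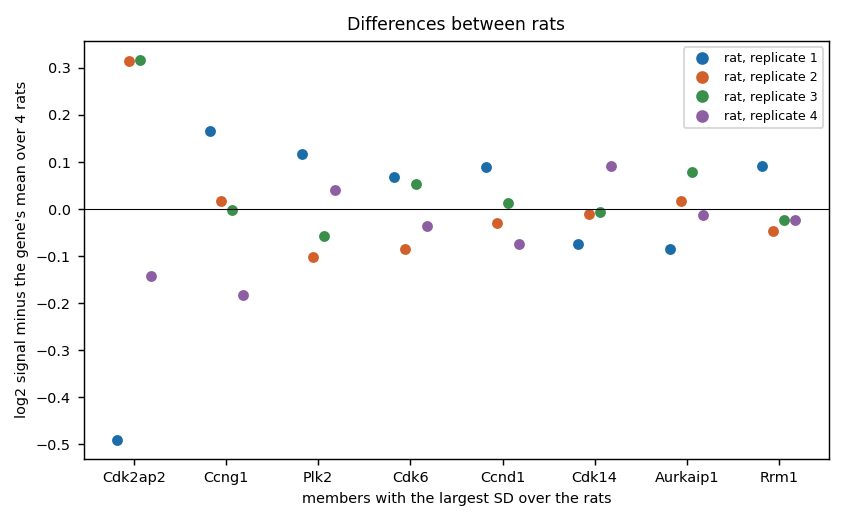
Log2 signal minus the gene's own mean over the rats (y axis) for the 8 members with the largest SD (x axis), 1 coloured point per rat. Cdk2ap2 has replicates 2 and 3 above its mean of 10.73 and replicate 1 furthest below it, while Ccng1 has replicate 1 highest and replicate 4 lowest.

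Genes of the same pathways outside the symbol rule were taken from lists of their own. These lists, like the members, were chosen with earlier results of these data known. Only measured genes are counted. They were 29 of 40 listed for DNA replication, 27 of 54 for mitosis, and 5 of 11 for the retinoblastoma and DREAM genes. Of 29 genes of DNA replication and origins, 8 were above background (27.6%), led by Rfc1, a clamp loader subunit, and Tk1, thymidine kinase, flat at 8.97 and 8.93, and Dut, the dUTPase, at 8.66 ± 0.04. Of 27 genes of mitosis and cytokinesis, 4 were (14.8%): Cks1b, a CDK subunit, at 9.18 ± 0.24, Ube2s, flat at 8.98, Pttg1 (securin) at 8.51 ± 0.02, and Fzr1, the activator of the anaphase-promoting complex in resting cells, at 8.46 ± 0.08. Cks1b was lowest in replicate 1 (8.85, against 9.19 to 9.41). Both shares lay below the 49.7% of all named genes, as did the 16% of the proliferation genes among the members. The medians of the 2 lists were 7.97 and 7.75.

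Lists with a restraining role were mixed beside the 49.7% of all named genes. Of 20 antiproliferative and FoxO-linked genes, 14 were above background (70%). Btg1, which slows growth, led them at 11.74 ± 0.34, followed by Id2, which stands on this list although it is known to inhibit differentiation and oppose retinoblastoma proteins, at 10.67 ± 0.26, and Txnip at 9.88 ± 0.04. Of the retinoblastoma and DREAM genes, 3 of 5 were above background. These were Rbbp7, a histone-binding protein, at 9.76 ± 0.06, Rbl2 (p130), the pocket protein of resting cells, flat at 8.74, and Lin37, a DREAM subunit, at 8.42 ± 0.13. Rb1 was at 7.79. Of p53 and its targets, 3 of 8 were above background (37.5%), with Ei24 at 10.52 ± 0.02, Perp at 9.10 ± 0.07 and Phlda3 at 8.96 ± 0.27.

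Growth factor and immediate early genes were above background for 10 of 21 (47.6%), close to the 49.7% of all named genes. They were led by Igf1 at 12.63 ± 0.10, the epidermal growth factor receptor Egfr at 10.21 ± 0.68 and the kinase Sgk1 at 9.37 ± 0.75. Those of them above background and not flat (9 genes) had a median SD of 0.621, beside 0.057 over all such genes. The comparison was not matched for signal. Egfr was low in replicates 2 and 4 (9.39 and 9.93) and high in replicates 1 and 3 (10.86 and 10.66). Clock genes were above background for 5 of 14 (35.7%), with Nfil3 at 9.07 ± 0.28, Cry2 at 8.83 ± 0.06 and Per1 flat at 8.74.

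Cells other than hepatocytes also contributed RNA. In whole liver, fewer cells of a type and less RNA per cell cannot be told apart. Kupffer cell markers were above background for 6 of 6 measured, led by Clec4f at 10.51, sinusoidal endothelial markers for 4 of 5, with Eng and Kdr both at 9.56, and stellate cell markers for 4 of 10, led by Col3a1 at 10.83. Lymphocyte markers were above background for 0 of 7 and bile duct markers for 0 of 4, while blood cell markers were for 3 of 4, with Hbb at 11.46. Which cells gave the signals of the members was not tested. No dividing tissue was measured here, so how far these signals would move in dividing liver was not tested either.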

How the data were processed

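The authors' deposited values are log2 signals from Affymetrix arrays, 1 per rat. R 2.4.1, affy 1.12.2, GCRMA and RMA are listed per the submitters' processing notes, with no order or role, so which method gave the values is not given in the sources used here. Per the file headers of the scanner settings the array is RAE230A, while the labels' protocol names RAE230-2. The lot entry did not differ between the 4 arrays, and their medians were all 8.11, so a common scale had been set before deposit. The number of arrays limits the precision.

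Of 15923 probe sets, 12789 carried 1 symbol, 312 several and 2822 none. The symbols of all 87 members matched the GRCr8 gene table by gene number. Members, lists, alternatives and the background level were chosen with earlier results of these data known; the promoter motifs, the p53 half-site last, and the place of Aurkaip1 among the roles were chosen after values were seen. Myh1 was left out of the background list because its probe sets alone set the level. Named were members above background, all members of 4 roles, set sentinels, the 8 largest SDs, members with several probe sets, and the 3 brightest genes of each outside list; other members with a known role were added after their values were seen. No test between groups was made. Python 3.11.15 with numpy 2.4.6 and pandas 2.3.3 was used. The background level, the ranking of enlarged SDs and the quantile normalization were checked on simulated data without flat probe sets. The counts above background and the flags for single rats were not checked in this way. Alternatives covered the level, the probe set, the scaling and leaving out each rat.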

Additional observations from a re-analysis of the deposited data

Results flagged for a closer look

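Of 43 members that were not flat, 5 had 1 rat far from the other 3 relative to the range of the 4 values. Small differences can count. Chance gives about 1 in 20 for normally distributed values. The share over all named genes was not computed, so 5 of 43 is not shown to be unusual on these arrays. Cdkn1b was low in replicate 1 (8.28, against 8.38 to 8.39 in the others), and so was Cdk17, a kinase of the PCTAIRE group (7.81, against 7.93 to 7.94). Rrm1 was high in replicate 1 (7.46, against 7.32 to 7.34). Ccng2 was low in replicate 3 (7.92, against 7.94 in the others), and Cdc42ep5, a Cdc42 effector, in replicate 2 (7.96, against 8.03 to 8.04). Outside the members, a probe set shared by Cdc42se2 and Cdc42se2-ps1 had a mean of 8.30, above the background level.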

How the results depend on the processing

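The background level limits every count. With Myh1 in the list it was 9.69, and 4 of 87 members (Cdk2ap2, Cdc37, Cdc42 and Cdc34), 0 of 25 proliferation genes and 7 of 124 pathway genes outside the list were above it, against 35, 4 and 47 at 8.26. At the 98th percentile 2 proliferation genes, Pcna and Plk1, stayed above. The median signal of members was 8.02 when each gene took its middle probe set value, against 8.09. Leaving out each rat gave 34 to 35 members, 3 to 4 proliferation genes, 46 to 50 outside genes, a median signal of 8.09 and a median SD from 0.033 to 0.046. Without replicate 1 Ccng1 fell under the level, and without replicate 2 Cdc20 did. The other alternatives, among them the 90th percentile, a renewed quantile normalization and leaving out the probe set suffixes s, x and a, kept each count within 1.5 times. The median SD was 0.040 over 23 members; it was 0.023 with the 12 flat members kept and 0.021 with the renewed normalization, after which these were no longer flat and entered too (35 members in both). As the median absolute deviation, another measure of spread, it was 0.027. A background list used in earlier work was not run. No paired analysis was possible because there is 1 group.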
